A study of Homo sapiens with 11 samples.

Results

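The enzymes of fatty acid oxidation were followed as 32 named genes, picked out by symbol from the 45965 genes of a 3′ tag RNA-seq table. All 32 were in the table, each in 1 row. They comprise 4 acyl-CoA synthetases that activate fatty acids, 5 genes of the carnitine shuttle, 19 mitochondrial enzymes and electron carriers and 4 peroxisomal enzymes. Of these, 31 had enough counts to be tested. ACSL5, an acyl-CoA synthetase known from intestine and liver, had 9 counts over all libraries and was left out of the tests.

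A fatty acid is first joined to coenzyme A by an acyl-CoA synthetase, and its acyl group is then handed to carnitine by CPT1, carried through the inner mitochondrial membrane by SLC25A20 and handed back to coenzyme A by CPT2. Inside the mitochondrion each round of β-oxidation runs through an acyl-CoA dehydrogenase, which passes electrons to ETF and ETFDH, then a hydratase, a second dehydrogenase and a thiolase. Auxiliary isomerases and reductases prepare the double bonds of unsaturated fatty acids, and peroxisomes carry out a related pathway on very long and branched chains.

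The cells were H1299, an established line from a human non-small cell lung cancer without endogenous p53. All of them carried a stably introduced mutant p53, with the DNA-contact mutation R273H or the structural mutation R175H, and with either proline (P72) or arginine (R72) at the common polymorphic codon 72. Per the labels, 5 µg of DNA was transfected and neomycin selection lasted 14 days at 800 µg per ml. The labels name neither the promoter of the construct nor the number of clones, and no library of untransfected cells was analysed here. There were 3 libraries of R175H P72 (replicates 1, 2 and 4), 3 of R175H R72 (1, 2 and 4), 4 of R273H P72 (1 to 4) and 1 of R273H R72 (replicate 3). Batch, as the labels call it, was b1 for 3 R273H P72 libraries (replicates 2, 3 and 4) and 1 R175H R72 library (replicate 1), and b2 for the other 7 libraries. Separate cultures are not stated, so p-values measure the spread between these libraries, which may be technical.

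Library totals ran from 8346926 to 12829560 estimated counts. Levels are given as CPM, the estimated counts brought to a common library total, here after edgeR's TMM scaling. Of 5 epithelial markers 2 had a mean over 1 CPM (KRT8 and KRT18) and CDH1 reached at most 0.12 CPM. None of 4 lung markers had a mean over 1 CPM and SFTPC was at 0 throughout, while VIM, a mesenchymal marker, was at 754.9 to 1827.1 CPM. Markers of tissues known for burning or storing fat were at or near 0. The summed hepatocyte markers reached at most 0.177 CPM with ALB and TTR at 0, the muscle markers 0.187 CPM with MYH7, ACTA1 and CKM at 0, and the adipocyte markers 1.38 CPM. Relative to its mean over all libraries, the level of a gene also went with the GC content of its 3′ end, to a degree that differed by library. The slopes of this deviation in log2 CPM per 10% GC were 0.0433 to 0.0716 in the 4 b1 libraries and -0.0855 to 0.026 in the 7 b2 libraries.

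Summed over the 32 genes, fatty acid oxidation tags made up 2139.9 to 2382.8 CPM of a library. The mitochondrial enzymes held 59.5% to 68.4% of this sum, the synthetases 17.4% to 27.5%, the carnitine shuttle 9.45% to 12.3% and the peroxisomal enzymes 2.58% to 3.37%. A tag is counted once per transcript and is not divided by length, but genes can differ in how well their 3′ ends are captured. Over all libraries, 23 of the 32 genes varied by less than 2-fold between their lowest and highest library. In bulk RNA, a lower level in every cell and a loss of the gene from some cells cannot be told apart.

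**Figure D1:**
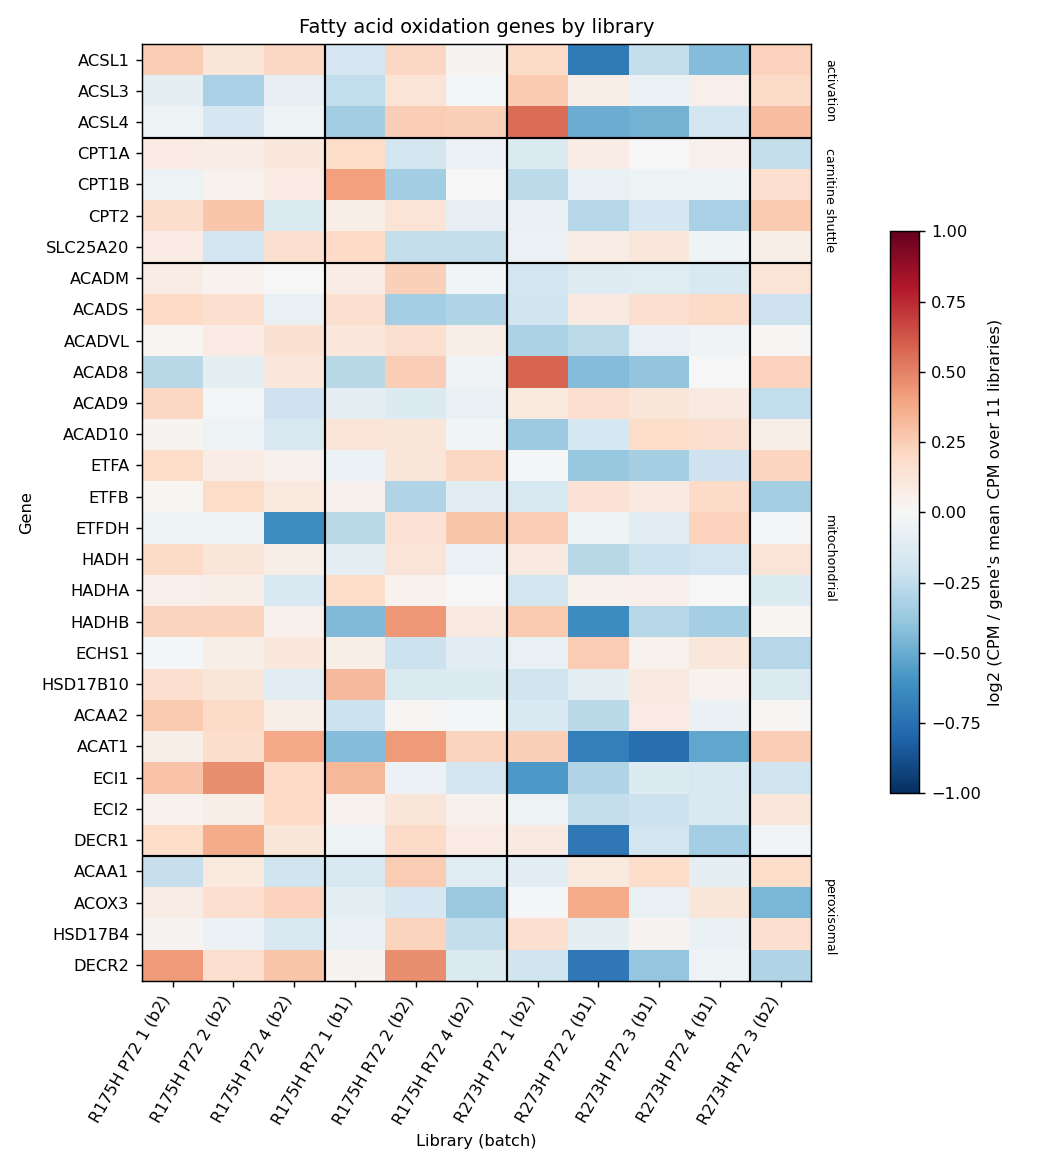
Level of each fatty acid oxidation gene in each library, as log2 of its CPM over its mean CPM of the 11 libraries (colour), with genes in rows by step and libraries in columns by group. CPT1C and ACSL5, which have few counts, are left out, ECI1 is above its mean in all R175H P72 libraries and below it in all R273H libraries, and ACAT1 is below its mean in all 4 b1 libraries.

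The hotspot comparison on P72 gave the most calls among the genotype comparisons. Between R273H P72 and R175H P72, 7 of the 31 tested genes passed the test, which is 22.6% of them, beside 14.6% of all 16324 genes tested (edgeR quasi-likelihood test with batch in the model, Benjamini-Hochberg adjusted p under 0.05). ACSL4, ACSL3 and ETFDH were higher in R273H, where 6.95% of all genes were called higher. ECI1, HSD17B10, ACADVL and CPT1A were lower, where 7.6% of all genes were called lower. The fitted log2 fold change was negative for 23 of the 31 genes and its median was -0.18, beside 0.003 over all genes. Without R273H P72 replicate 1, the one b2 library of its group, only ECI1 was called, and 7.72% of all genes. Beside these calls, the 3 mesenchymal markers went different ways. VIM was at 754.9 to 1088.5 CPM in R273H P72 against 1423.2 to 1827.1 in R175H P72, and ZEB1 at 29 to 36 against 36 to 48.3. CDH2 was higher, at 158.9 to 184.2 against 110.9 to 130.1 CPM. The sum of the 3, mostly VIM, was 972.5 to 1276.3 against 1588.1 to 1993.2 CPM. Summed fibroblast markers were at 2.57 to 6.45 against 1.7 to 2.48 CPM, with COL1A2 and LUM at 0 in all libraries. The part of these markers in the calls was not tested.

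The promoters of ECI1, ACSL4 and ACSL3 are shown because these 3 genes were called in the largest number of settings. Each sequence is the RefSeq window from 250 bases before to 50 bases after an annotated start on GRCh38.p14, written 5′ to 3′ on the strand of the gene, in lower case. Capitals mark a match on either strand to the SP1 box GGGCGGG or, in ECI1, also to the ETS site CCGGAAG.
ECI1 chr16:2251538-2251837, minus strand: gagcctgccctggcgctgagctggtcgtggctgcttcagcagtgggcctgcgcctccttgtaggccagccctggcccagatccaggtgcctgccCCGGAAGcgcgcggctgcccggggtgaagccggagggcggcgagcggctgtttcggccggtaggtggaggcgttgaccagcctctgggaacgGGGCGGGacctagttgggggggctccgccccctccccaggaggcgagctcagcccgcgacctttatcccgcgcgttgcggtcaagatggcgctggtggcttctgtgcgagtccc
ACSL4 chrX:109733208-109733507, minus strand: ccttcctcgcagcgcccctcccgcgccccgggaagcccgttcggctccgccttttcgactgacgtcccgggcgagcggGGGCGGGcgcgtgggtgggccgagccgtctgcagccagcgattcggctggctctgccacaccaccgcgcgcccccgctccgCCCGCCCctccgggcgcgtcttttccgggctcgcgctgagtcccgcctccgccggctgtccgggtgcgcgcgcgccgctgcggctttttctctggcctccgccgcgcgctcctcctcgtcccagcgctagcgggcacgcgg
ACSL3 chr2:222860786-222861085, plus strand: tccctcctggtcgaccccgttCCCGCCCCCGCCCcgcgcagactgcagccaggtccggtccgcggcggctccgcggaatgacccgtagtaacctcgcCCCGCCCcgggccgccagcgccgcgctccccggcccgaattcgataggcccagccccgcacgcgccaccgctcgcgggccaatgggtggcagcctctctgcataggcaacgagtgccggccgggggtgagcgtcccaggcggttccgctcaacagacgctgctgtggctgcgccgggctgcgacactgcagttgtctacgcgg

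The ECI1 window holds 1 SP1 box and 1 ETS site, the ACSL4 window 2 SP1 boxes and the ACSL3 window 3. All 3 windows are rich in G and C, with 71.7% for ECI1, 77.7% for ACSL4 and 74.0% for ACSL3. Promoter entries were matched for 27 of the 32 genes, with 41 windows in all. An SP1 box was in 22 of the 41 windows (53.7%), beside 33.1% of 35116 RefSeq windows of the same length. An ETS site was in 5 (12.2%, beside 10.3% of all) and the NRF1 site (GCGCA and GCGC with any 1 base between them) in 2 (4.88%, beside 5.78%), with ACAD9 and ETFB holding the latter. Letters of the ERR element TCAAGGTCA and of the PPAR element (AGGTCA repeated after any 1 base), both bound by nuclear receptors known to act on this pathway, were in none of the 41 windows and in 0.353% and 0.0228% of all windows. Both strands were searched, and a match of letters is no measured binding site.

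ECI1 (ENSG00000167969, hg38 chromosome 16, 2239395 to 2252300, minus strand) encodes the mitochondrial enoyl-CoA isomerase that moves the double bond of unsaturated fatty acids to where the hydratase can act. In R175H P72 it was at 178.0, 201.2 and 167.3 CPM, and in R273H P72 at 97.8, 118.1, 132.4 and 130.2 CPM. Every R273H P72 library, 1 from b2 and 3 from b1, lay below every R175H P72 library, all from b2. The means were 119.6 ± 15.8 (SD, n = 4) against 182.2 ± 17.3 CPM (SD, n = 3), and the fitted level in R273H was lower by a factor of 1.9 (log2 fold change -0.92, SE 0.10, edgeR adjusted p = 1.83e-05). Within batch b2, where 1 R273H P72 library stood against 3 and its spread came from the other groups, the log2 fold change was -0.90 (edgeR adjusted p = 0.00264). With a correction for GC content it was -0.78 (edgeR adjusted p = 0.000141). ECI1 stayed called in all 11 fits that left out a library, at -0.99 to -0.85.

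ACSL4 (ENSG00000068366, chromosome X, 109624244 to 109733403, minus strand) encodes an acyl-CoA synthetase with a preference for arachidonic and other polyunsaturated fatty acids. It was at 96.0, 88.3 and 96.5 CPM in R175H P72 and at 146.3, 70.3, 71.7 and 86.8 CPM in R273H P72. The first R273H P72 library, from b2, was above all R175H P72 libraries, and the 3 b1 libraries were below all of them. The group means were alike, at 93.8 ± 35.8 (SD, n = 4) and 93.6 ± 4.60 CPM (SD, n = 3), and the call rests on the batch term (log2 fold change 0.53, SE 0.11, edgeR adjusted p = 0.0025). Within b2 it was 0.64 (edgeR adjusted p = 0.00594), where 1 R273H library was set against 3. Without that library it was 0.30 (edgeR adjusted p = 0.295), and without a batch term 0.01 (edgeR adjusted p = 0.987).

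ACSL3 (ENSG00000123983, chromosome 2, 222860934 to 222944639, plus strand) encodes a synthetase of the endoplasmic reticulum and lipid droplets and gave the most tags of the 32 genes. It was at 367.1, 313.7 and 371.1 CPM in R175H P72 and at 471.7, 412.1, 377.0 and 406.9 CPM in R273H P72. The ranges did not overlap, although the third R273H library lay close to the R175H libraries. The means were 416.9 ± 39.7 (SD, n = 4) and 350.6 ± 32 CPM (SD, n = 3), with a log2 fold change of 0.45 (SE 0.10, edgeR adjusted p = 0.00415). Within b2 it was 0.43 (edgeR adjusted p = 0.0586), and without R273H P72 replicate 1 it was 0.50 (edgeR adjusted p = 0.0522).

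ACSL1, the synthetase known from heart, fat and liver, was low, at 3.75 to 7.26 CPM, and did not pass the test (log2 fold change -0.10, SE 0.22). Of the summed tags of ACSL1, ACSL3, ACSL4 and ACSL5, ACSL3 held 75.5% to 84.8%, ACSL4 14.5% to 23.4% and ACSL1 0.772% to 1.63%. ACSL5 had 0 to 2 counts per library and was at 0 in 6 of the 11, where 3 counts, the upper limit that a count of 0 allows, correspond to at most 0.36 CPM.

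The 5 genes of the carnitine shuttle all had a negative log2 fold change of R273H over R175H on P72. Their median was -0.27, beside 0.003 over all genes. Only 1 of the 5, CPT1A, passed the test, beside 14.6% of all genes. CPT1A (ENSG00000110090, chromosome 11, 68754620 to 68844410, minus strand) is the liver-type carnitine palmitoyltransferase of the outer membrane, the step that malonyl-CoA inhibits. It was at 203.0, 201.0 and 205.6 CPM in R175H P72 and at 173.3, 201.6, 190.6 and 197.2 CPM in R273H P72. The ranges overlapped by 1 library, and the b2 library of R273H P72 was the lowest. The log2 fold change was -0.27 (SE 0.09, edgeR adjusted p = 0.0488), close to the threshold. It was called in only 2 of the 11 fits that left out a library, and within b2 it was -0.23 (edgeR adjusted p = 0.274).

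CPT1B, the muscle-type enzyme, was at 16, 17.0 and 17.5 CPM in R175H P72, 22, 13 and 16.6 in R175H R72, 13.8, 15.7, 16 and 16.1 in R273H P72 and 18.6 in R273H R72. The groups overlapped on both sides of the hotspot comparison (log2 fold change -0.41, SE 0.16, edgeR adjusted p = 0.0886). CPT1C, the brain form, had 79 counts in all, from 0 to 15 per library, so changes in it were not detectable at this depth (SE 1.02). CPT1A gave 89.4% to 92.5% of the summed tags of the 3 CPT1 genes, CPT1B 7.09% to 10.3% and CPT1C at most 0.825%. The CPT1A share was 92.0% ± 0.231 in R175H P72 (SD, n = 3), 91.5% ± 0.737 in R175H R72 (SD, n = 3), 92.2% ± 0.311 in R273H P72 (SD, n = 4) and 89.4% in the R273H R72 library.

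CPT2, the inner-membrane transferase, was at 23.4, 25.2 and 18.9 CPM in R175H P72, 21.8, 22.8 and 19.6 in R175H R72, 19.7, 17.0, 18.5 and 16.6 in R273H P72 and 24.9 in R273H R72. Its hotspot log2 fold change on P72 was -0.27 (SE 0.15, edgeR adjusted p = 0.267). Exons of CPT2 overlap those of C1orf123 on the other strand, which had 3400 counts beside 2296 for CPT2. SLC25A20, the carnitine-acylcarnitine carrier, lay between 14.0 and 19.0 CPM (log2 fold change -0.19, SE 0.16). Neither passed the test.

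**Figure D2:**
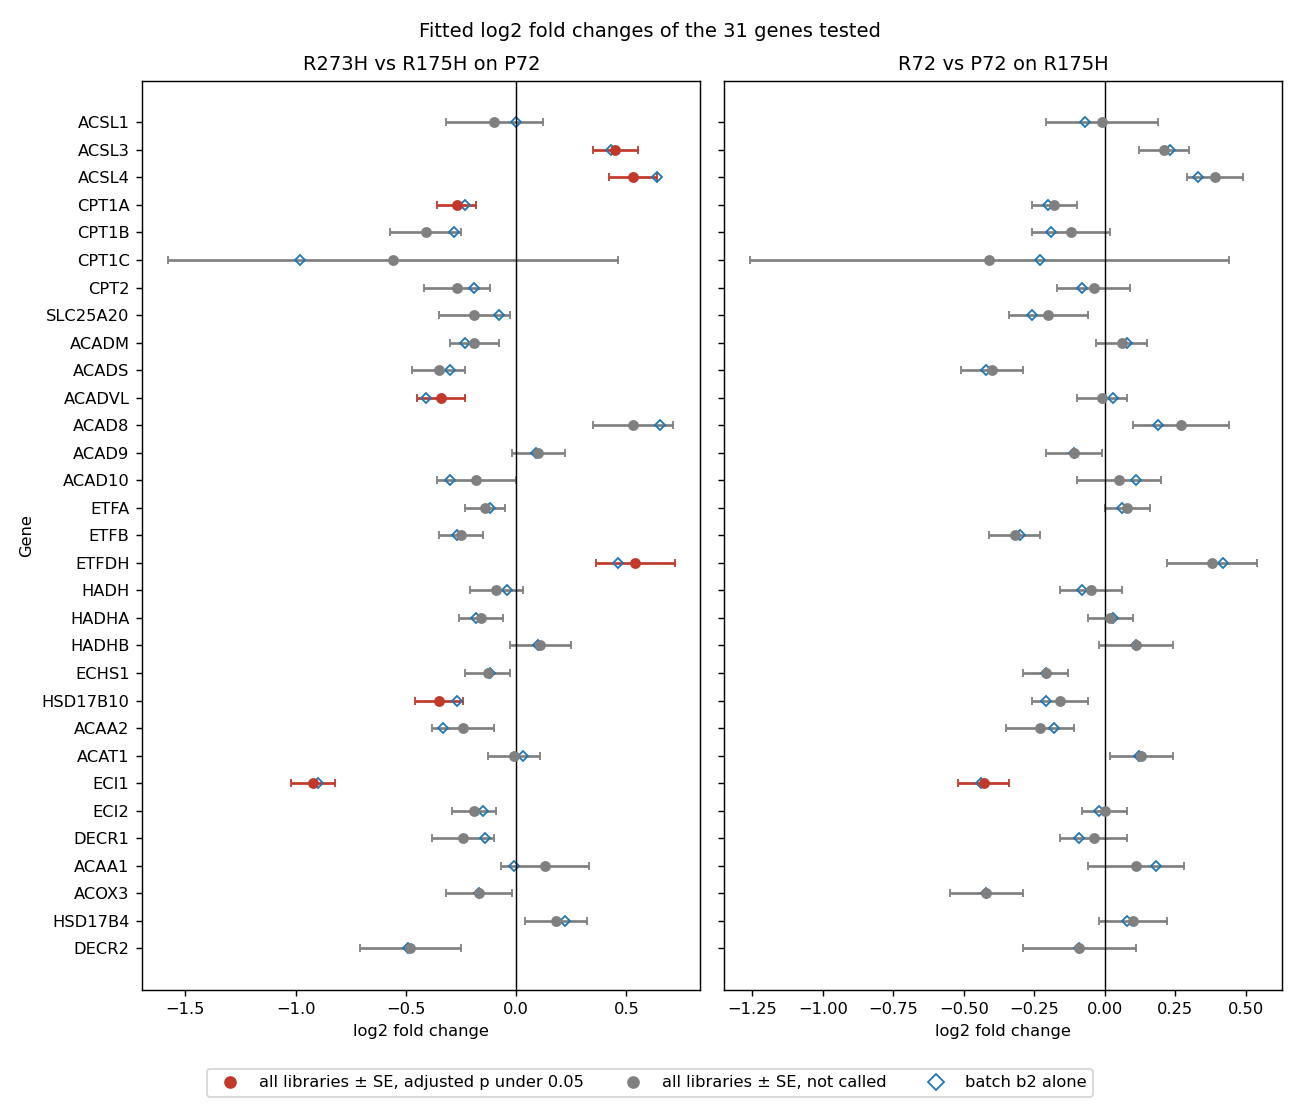
Fitted log2 fold change of each tested gene for R273H over R175H on P72 (left) and R72 over P72 on R175H (right), with bars of 1 standard error, red where the adjusted p was under 0.05, and the value within batch b2 as a diamond. ECI1 at -0.92 stands farthest from 0 on the left, and it is the one red gene on the right.

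Of the 19 mitochondrial genes 4 passed the test in the hotspot comparison on P72 (21.1%, beside 14.6% of all genes), 1 higher and 3 lower. The log2 fold change was negative for 15, with a median of -0.18 beside 0.003 over all genes. The summed tags of the 19 genes were 1517.3 to 1603.3 CPM in the R175H P72 libraries and 1349.2 to 1409.2 CPM in the R273H P72 libraries, without overlap. Much of this gap lay in ECI1 (means of 182.2 and 119.6 CPM) and in ETFA (265.3 and 210.8 CPM), which was lowest in the b1 libraries. The b2 library of R273H P72 had a sum of 1353.5 CPM, among those of the b1 libraries of its group. In it ECI1, at 97.8 CPM, was the lowest of all libraries. Its ETFA (244.1 CPM), ACAT1 (46.5 CPM) and HADHB (31.1 CPM) were above those of every b1 library. The sum was not tested, nor was the part of batch in it. The single R273H R72 library was at 1415.9 CPM and R175H R72 at 1461.1 to 1529.3 CPM.

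Among the acyl-CoA dehydrogenases, which open the cycle, ACADVL was lower in R273H P72. ACADVL (ENSG00000072778, chromosome 17, 7217125 to 7225273, plus strand), the enzyme for very long chains, was at 91.0, 95 and 99.8 CPM in R175H P72 and at 72, 74.7, 85.2 and 87.6 CPM in R273H P72. The ranges did not overlap, and the log2 fold change was -0.34 (SE 0.11, edgeR adjusted p = 0.0334). With the GC correction it was -0.24 (edgeR adjusted p = 0.138), and without R273H P72 replicate 1 -0.21 (edgeR adjusted p = 0.461). Exons of ACADVL overlap those of DLG4 on the other strand, which had 8964 counts beside 9840 for ACADVL. Strand use in counting is not stated in these sources.

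ACADM, the medium-chain enzyme, was at 49.5 to 52.3 CPM in R175H P72 and at 43.6 to 45.6 CPM in R273H P72, without overlap, yet it did not pass the test (log2 fold change -0.19, SE 0.11, edgeR adjusted p = 0.261). Its exons overlap those of RABGGTB on the same strand, which had 2755 counts beside 5458 for ACADM. ACADS, the short-chain enzyme, fell just short (-0.35, SE 0.12, edgeR adjusted p = 0.0508) and was at -0.08 with the GC correction. Of all 31 genes it had the highest GC content in the last 500 nt of its transcripts, 65.1%. ACAD8, which acts on a valine breakdown product, had a log2 fold change of 0.53 (SE 0.18, edgeR adjusted p = 0.0549). It was at 20.5 CPM in R273H P72 replicate 1 and at 10.1 to 16.2 CPM in the other 10 libraries. ACAD9, an assembly factor of respiratory complex I, and ACAD10 had log2 fold changes of 0.10 (SE 0.12) and -0.18 (SE 0.18).

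Of the 3 electron carriers ETFDH was called, which is 33.3% of them beside 14.6% of all genes. ETFA and ETFB encode the subunits of the electron transfer flavoprotein, and ETFDH hands the electrons to ubiquinone. ETFDH (ENSG00000171503, chromosome 4, 158672125 to 158709623, plus strand) was at 15.7, 15.7 and 10.5 CPM in R175H P72 and at 19.2, 15.7, 15 and 18.9 CPM in R273H P72. The ranges overlapped, and R175H P72 replicate 4 was the lowest of all 11 libraries. Its log2 fold change was 0.54 (SE 0.18, edgeR adjusted p = 0.0497), but 0.37 without that library (edgeR adjusted p = 0.16), and it was called in 3 of the 11 fits that left out a library. On the opposite strand its exons overlap those of PPID (3926 counts) and C4orf46 (1807 counts), beside 1773 counts for ETFDH.

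ETFA was at 280.3, 260.6 and 254.9 CPM in R175H P72, 237.9, 268.4 and 286.0 in R175H R72, 244.1, 189.6, 195.9 and 213.7 in R273H P72 and 286.8 in R273H R72. The 4 b1 libraries were the lowest of all. With batch in the model the hotspot difference on P72 was -0.14 (SE 0.09, edgeR adjusted p = 0.346). ETFB was at 57.3 to 82.5 CPM, with a log2 fold change of -0.25 (SE 0.10, edgeR adjusted p = 0.116).

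In the later steps of the cycle 1 of 7 genes passed the test (14.3%, beside 14.6% of all genes), and 6 had a negative log2 fold change. HSD17B10 (ENSG00000072506, chromosome X, 53431258 to 53434373, minus strand) encodes a mitochondrial hydroxyacyl-CoA dehydrogenase that is also a subunit of mitochondrial RNase P. It was at 89.7, 86.9 and 73.9 CPM in R175H P72 and at 69.4, 74.5, 84.8 and 81.7 CPM in R273H P72. The ranges overlapped broadly, and the log2 fold change was -0.35 (SE 0.11, edgeR adjusted p = 0.0332) with batch in the model and -0.11 (edgeR adjusted p = 0.59) without it. It was called in 7 of the 11 fits that left out a library.

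ECHS1, the short-chain enoyl-CoA hydratase, was at 229.7, 240.8 and 248.7 CPM in R175H P72, 240.7, 199.3 and 214.9 in R175H R72, 220.3, 275.8, 236.9 and 250.3 in R273H P72 and 190.4 in R273H R72. The hotspot groups on P72 overlapped (log2 fold change -0.13, SE 0.10). HADHA and HADHB, the subunits of the trifunctional protein, lie on opposite strands of chromosome 2, with annotated spans of 26190635 to 26244726 and 26243170 to 26290468. Neither passed the test (-0.16, SE 0.10, and 0.11, SE 0.14). HADH, ACAA2 and ACAT1, a dehydrogenase and a pair of thiolases, had log2 fold changes of -0.09 (SE 0.12), -0.24 (SE 0.14) and -0.01 (SE 0.12).

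Beside ECI1, the auxiliary enzymes ECI2, a second isomerase, and DECR1, the dienoyl-CoA reductase, did not pass the test. ECI2 was at 94.2 to 105.8 CPM in R175H P72 and 78.0 to 88.7 CPM in R273H P72, without overlap (log2 fold change -0.19, SE 0.10, edgeR adjusted p = 0.215). DECR1 was at 41.2 to 48.9 CPM and 23.1 to 40.2 CPM, also without overlap (-0.24, SE 0.14, edgeR adjusted p = 0.275). In all, the ranges of 8 of the 31 genes did not overlap between these groups, beside 28.1% of all genes.

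None of the 4 peroxisomal genes was called between the hotspots on P72, beside 14.6% of all genes. HSD17B4, the peroxisomal bifunctional enzyme, was at 28.1, 26.4 and 24.7 CPM in R175H P72, 26.3, 32.1 and 23.3 in R175H R72, 30.8, 25.9, 28.0 and 26.3 in R273H P72 and 30.9 in R273H R72 (log2 fold change 0.18, SE 0.14). ACOX3, a peroxisomal acyl-CoA oxidase, was at 24.7, 26.4 and 27.6 CPM in R175H P72 and at 23.3, 30.4, 22.3 and 25.6 CPM in R273H P72 (-0.17, SE 0.15). ACAA1, the peroxisomal thiolase, had 0.13 (SE 0.20) and DECR2, the peroxisomal reductase, -0.48 (SE 0.23, edgeR adjusted p = 0.183). DECR2 shares exons on its own strand with NME4, which had 15499 counts beside 851 for DECR2, so its value is uncertain.

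**Figure D3:**
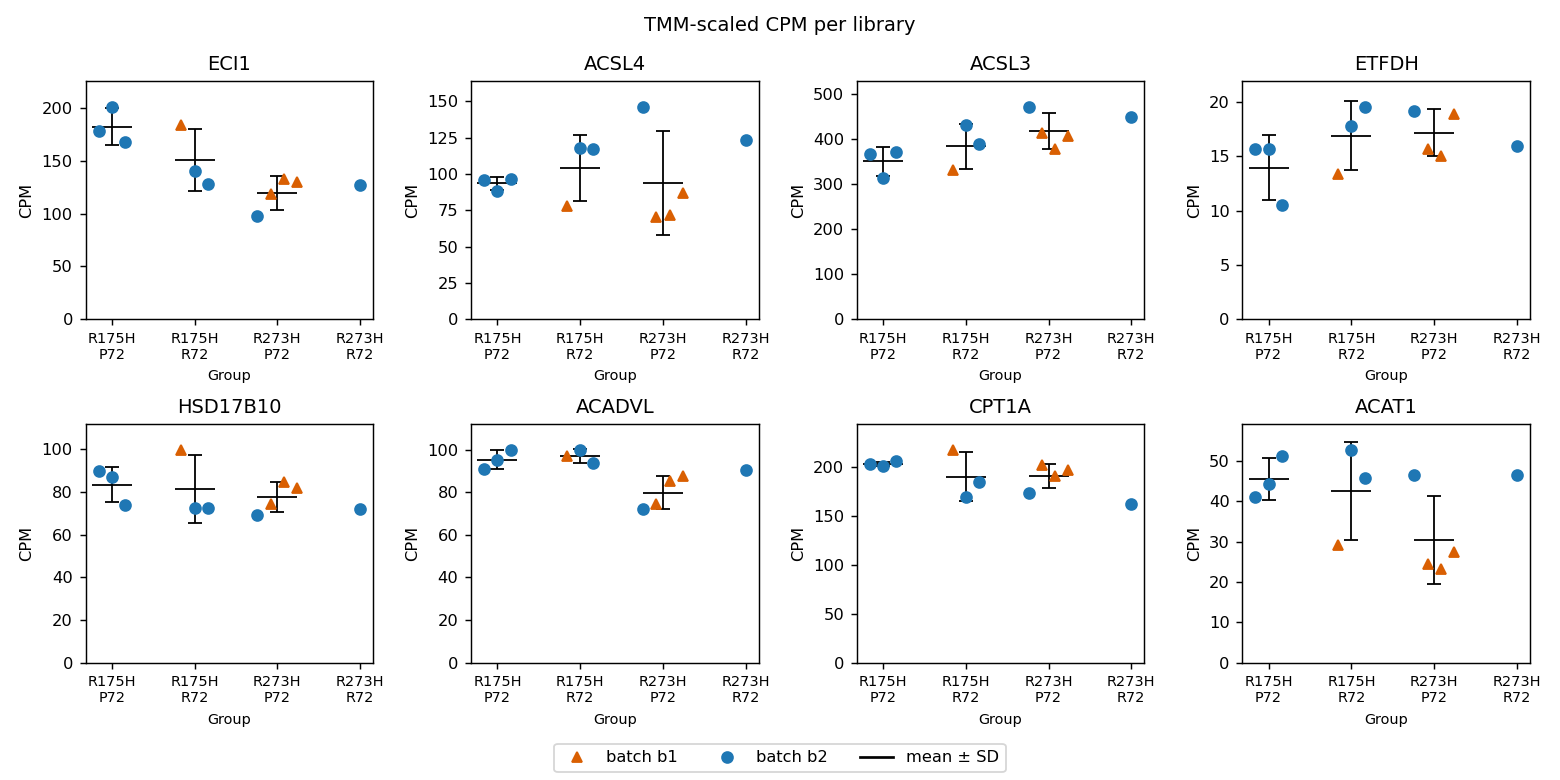
TMM-scaled CPM of the 7 genes called in a comparison and of ACAT1 in each library (points; triangles b1, circles b2) by group, with the group mean and SD as lines; R273H R72 has 1 library. The R273H P72 and R175H P72 libraries do not overlap for ECI1 (97.8 to 132.4 against 167.3 to 201.2 CPM), ACSL3 and ACADVL, and ACSL4 and ACAT1 separate by batch.

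The second question was whether the codon 72 form changed these genes on R175H. ECI1 was lower with R72, and it was the 1 gene of 31 that passed the test, beside 1.13% of all genes called and 0.815% called lower. It was at 183.8, 140.1 and 128.4 CPM in R175H R72, against 167.3 to 201.2 CPM in R175H P72. The b1 library of R175H R72 lay within the P72 range and both b2 libraries lay below it. The means were 150.8 ± 29.2 and 182.2 ± 17.3 CPM (SD, n = 3 each), with a log2 fold change of -0.43 (SE 0.09, edgeR adjusted p = 0.0203). The call ended within b2 alone (-0.44, edgeR adjusted p = 0.0533) and with the GC correction (-0.30, edgeR adjusted p = 0.172). Without a batch term it was -0.27 (edgeR adjusted p = 0.661). It also ended without R175H P72 replicate 2 (-0.35, edgeR adjusted p = 0.154), R175H R72 replicate 2 (-0.47, 0.0859) or R175H R72 replicate 4 (-0.37, 0.0798).

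The other 30 tested genes did not pass the test on R175H. ACSL4 came closest, at 78.1, 118.0 and 116.8 CPM with R72 against 88.3 to 96.5 CPM with P72 (log2 fold change 0.39, SE 0.10, edgeR adjusted p = 0.0586). The b1 library was below the P72 range and both b2 libraries above it. ACADS (-0.40, SE 0.11, edgeR adjusted p = 0.0661), ETFB (-0.32, SE 0.09, edgeR adjusted p = 0.0944) and ACOX3 (-0.42, SE 0.13, edgeR adjusted p = 0.125) had negative values. ACOX3, at 22.1, 20.9 and 18.2 CPM with R72, and ACAA2 were the 2 genes whose ranges did not overlap, beside 13.0% of all genes. ACSL3 was at 331.6, 431.0 and 389.0 CPM with R72 (0.21, SE 0.09, edgeR adjusted p = 0.27) and CPT1A at 217.6, 168.9 and 184.2 CPM (-0.18, SE 0.08, edgeR adjusted p = 0.318). ACADVL, at 97.3, 100 and 93.7 CPM, gave -0.01 (SE 0.09). HSD17B10, at 99.8, 72.3 and 72.4 CPM, gave -0.16 (SE 0.10), and ETFDH, at 13.4, 17.8 and 19.6 CPM, gave 0.38 (SE 0.16, edgeR adjusted p = 0.3). Over the 31 genes 12 values were positive and 19 negative, with a median of -0.04 beside -0.001 over all genes.

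On R273H, where 1 R72 library stood against 4 of P72 and its spread was taken from the other groups, 0 of the 31 genes passed the edgeR test, and 0.0% of all genes did. At an unadjusted p under 0.05 there were 7, beside 7.75% of all genes, and DESeq2 and limma-voom called 0 of the 31. In the R273H R72 library ECI1 was at 127.2 CPM, within the R273H P72 range of 97.8 to 132.4 CPM, and with batch in the model its log2 fold change was 0.41 (SE 0.13, edgeR adjusted p = 0.359). CPT1B gave 0.55 (SE 0.20, edgeR adjusted p = 0.458) and CPT2 0.41 (SE 0.19, edgeR adjusted p = 0.634). ACOX3, at 17.1 CPM, gave -0.45 (SE 0.20, edgeR adjusted p = 0.606). ACSL3 was at 449.2 CPM, ACSL4 at 123.2 CPM, CPT1A at 161.8 CPM, ACADVL at 90.7 CPM, HSD17B10 at 72.2 CPM and ETFDH at 16 CPM. The median SE of these genes was 0.16, and the SE reached 1.37 for CPT1C.

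Whether the R72 effect differed between the hotspots was tested as the difference of both effects. By this test 0 of the 31 genes passed in edgeR, beside 0.0306% of all genes called. At an unadjusted p under 0.05 there were 5, beside 10.2% of all genes. ECI1 came closest, with a difference of 0.83 (SE 0.17, edgeR adjusted p = 0.0733). DESeq2 called it, as did edgeR without a filter on low counts, while limma-voom called 0. These settings also called more of all genes, at 0.845% with DESeq2, 0.774% without a filter and 0.0735% with limma-voom. ACSL4 (-0.53, SE 0.19, edgeR adjusted p = 0.315), CPT1B (0.67, SE 0.27, edgeR adjusted p = 0.378), ETFDH (-0.72, SE 0.31, edgeR adjusted p = 0.42) and ACADS (0.43, SE 0.20, edgeR adjusted p = 0.462) followed.

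Between the hotspots on R72, 0 of the 31 genes passed the edgeR test, and DESeq2 and limma-voom called 0, beside 0.0429% of all genes called. At an unadjusted p under 0.05 there were 0, beside 4.62% of all genes. This again set 1 R273H library against 3. ECI1 was at 127.2 CPM in R273H R72 and at 128.4 to 183.8 CPM in R175H R72, with a log2 fold change of -0.09 (SE 0.12). The values for the 31 genes ran from -0.50 for DECR2 (SE 0.29) to 0.26 for CPT1B (SE 0.19), with a median of 0.006. These 4 pairwise comparisons share libraries and are not independent of each other.

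More of these genes were called for batch than in any genotype comparison. The term for b2 over b1 was called for 10 of the 31 genes, beside 9.21% of all genes, with the genes below named after their values were seen. ACAT1, the mitochondrial acetoacetyl-CoA thiolase, was at 23.3 to 29.1 CPM in the 4 b1 libraries and at 41.1 to 52.8 CPM in the 7 b2 libraries (log2 fold change 0.83, SE 0.11, edgeR adjusted p = 8.3e-05). ACSL4 was at 70.3 to 86.8 and 88.3 to 146.3 CPM (0.78, SE 0.09, edgeR adjusted p = 4.79e-05). HADHB was at 16.7 to 21.2 and 26.3 to 35 CPM (0.69, SE 0.12, edgeR adjusted p = 0.0013), while its partner HADHA had -0.19 (SE 0.08, edgeR adjusted p = 0.164). ACAD8, ACSL3 and ETFA were also called higher in b2 (6 higher in all, beside 5.61% of all genes), and ECI1, ACADS, HSD17B10 and ETFB lower (4, beside 3.6%). ETFA and ETFB, which form 1 protein, were thus called in opposite directions (0.26, SE 0.08, and -0.28, SE 0.09). For 7 genes (ACSL1, ACSL4, ETFA, HADH, HADHB, ACAT1 and DECR1) every b1 library lay below every b2 library, beside 7.79% of all genes whose batch ranges did not overlap. Of the groups, R273H P72 had 3 of 4 libraries in b1 and R175H P72 had all 3 in b2, so hotspot and batch are partly confounded on P72.

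The fold changes of these genes were related to different degrees to the GC content of their 3′ ends. Over the 31 genes, Pearson's r between the log2 fold change and the GC content of the last 500 nt was -0.70 for b2 over b1, -0.56 for the hotspot comparison on P72 and -0.64 for R72 on R175H. It was -0.25 for the hotspots on R72, 0.01 for R72 on R273H and 0.42 for the difference of the R72 effects. These are descriptions across genes, which share the same libraries. Of 15 genes with at least 50% GC, 12 had a negative R72 value on R175H, against 7 of 16 below 50%. After the GC correction r was -0.51 for b2 over b1, -0.38 for the hotspots on P72 and -0.38 for R72 on R175H. ECI1, at 60.4% GC, is on the GC-rich side, and ACSL4 and ACSL3, at 37.6% and 38.8%, are on the GC-poor side. The part of GC content in the called genes was not tested beyond this correction. Under it 4 of the 31 (ECI1, ACSL4, ACSL3 and CPT1A) were called in the hotspot comparison on P72, beside 13.4% of all genes. For R72 on R175H 0 of the 31 were called, beside 0.355% of all genes.

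**Figure D4:**
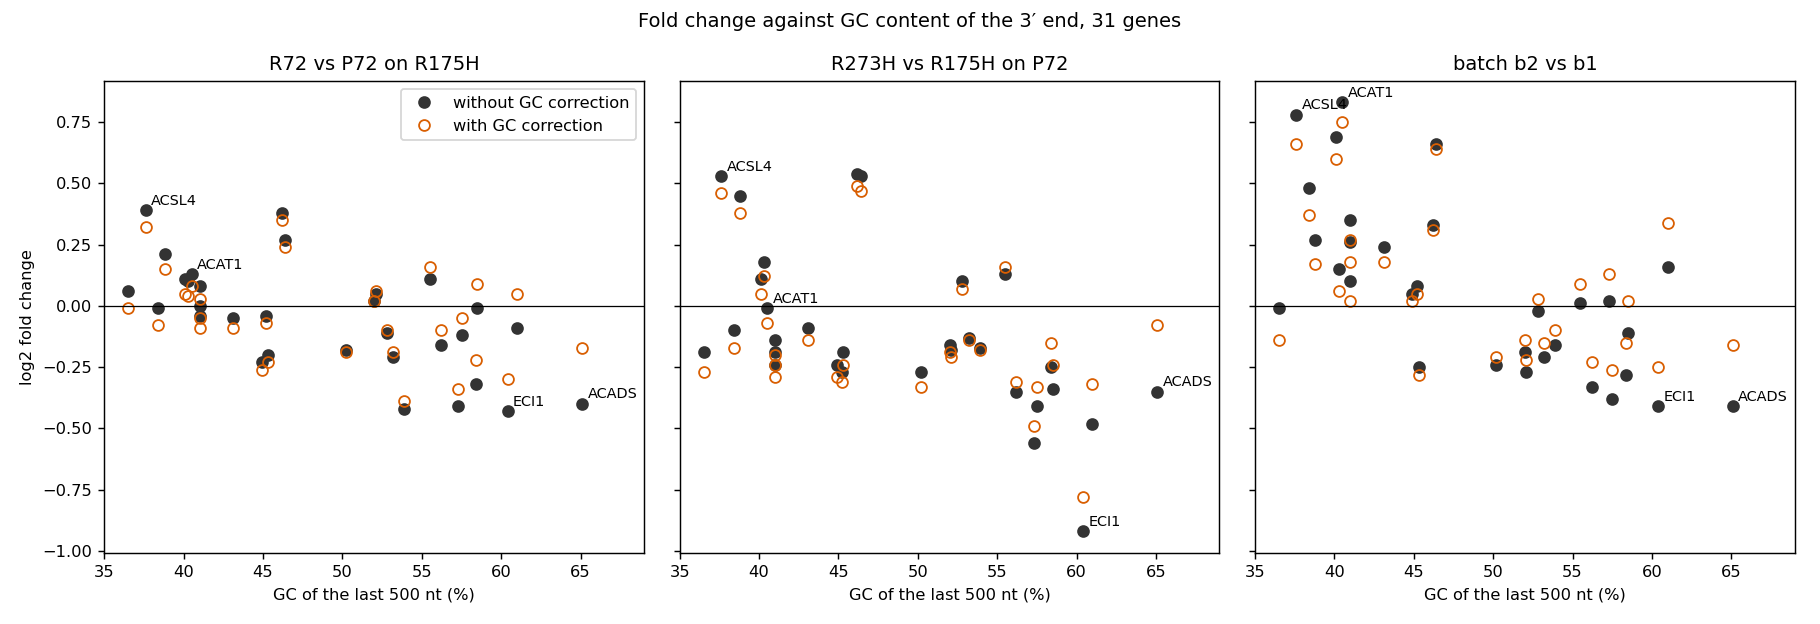
Log2 fold change (y axis) against GC content of the last 500 nt of transcripts in percent (x axis) for the 31 tested genes in 3 comparisons, filled without and open with the GC correction. Values fall from left to right in all 3 panels, with r of -0.64, -0.56 and -0.70 without the correction, and ECI1 at -0.92 lies below the other genes in the middle panel.

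A list of 75 symbols covered neighbouring genes of fatty acid metabolism (regulators, uptake, thioesterases, further dehydrogenases and peroxisomal, ketone and odd-chain enzymes). Some of the symbols were alternative names of 1 gene, and 72 were in the table and 66 tested. In the hotspot comparison on P72, 5 of the 66 were called, all lower in R273H, which is 7.58% of them beside 14.6% of all genes. ACOT7, a cytosolic acyl-CoA thioesterase, was at a mean of 26.2 against 38.5 CPM (log2 fold change -0.59, SE 0.13, edgeR adjusted p = 0.00402). SLC27A1, a fatty acid transport protein, was at 24.5 against 30.8 CPM (-0.53, SE 0.13, edgeR adjusted p = 0.0089). LYRM5, which binds the electron transfer flavoprotein, was at 13.3 against 18.0 CPM (-0.59, SE 0.16, edgeR adjusted p = 0.0137). ACOT2, a mitochondrial thioesterase with a near-identical neighbour in ACOT1, gave -0.37 (SE 0.12, edgeR adjusted p = 0.037) and is uncertain for that reason. None of the 13 regulators, among them PPARA, PPARD and ESRRA, was called in edgeR in any of the 5 comparisons, and 2 had an unadjusted p under 0.05 between the hotspots on P72, beside 27.8% of all genes. In each of the other 4 comparisons edgeR called 0 of the 66. Unadjusted p-values under 0.05 numbered 6 in the R175H pair (13.6% of all genes), 3 in the R273H pair (7.75%), 4 between the hotspots on R72 (4.62%) and 2 for the difference (10.2%).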

How the data were processed

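Messenger RNA of 11 H1299 libraries was made into Lexogen QuantSeq 3′ libraries, per the labels' protocols. The authors deposited estimated counts per Ensembl gene, whole numbers in the file, and no further scaling by them is stated. Bowtie2, RSEM 1.2.12, DESeq2 and hg38 are named in the submitters' processing notes. RSEM shares out reads with several matches, which can blur close paralogs. Groups and batch came from the labels. The members and all lists were chosen with earlier results of these data known.

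Of 45965 genes, 20641 had no count. filterByExpr (minimum count 10, minimum total 15) kept 16324, which were TMM-scaled and fitted together with edgeR 4.0.16 (R 4.3.3, robust quasi-likelihood, model of 4 groups and batch), with Benjamini-Hochberg adjustment over all genes tested and a threshold of 0.05. SE is the absolute log2 fold change over the square root of F. In all 12 replicate pairs the counts differed beyond sampling noise (chi-square per degree of freedom 4.24 to 20.1). Annotation was GENCODE 29, and promoter windows came from RefSeq.

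Values in every library are given for genes called in a comparison, the 2 with the highest mean CPM in each step and the CPT1 genes. From the neighbouring list, genes called in a comparison are named, at most 6 by smallest p. Some genes this rule covers are left out here. Alternatives were library totals, RLE scaling, no filter, 10 CPM in 3 libraries, DESeq2 1.42.0, limma-voom (limma 3.58.1), no batch term, b2 alone, a replicate block, a GC correction (spline of 5 degrees of freedom per library, as offsets), both together, and each library left out. The fit was tested on simulated data.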

Additional observations from a re-analysis of the deposited data

Results flagged for a closer look

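CPT1B in R273H P72 replicate 1 was at 13.8 CPM, apart from the other 3 libraries of its group at 15.7 to 16.1 CPM. Its gap to the nearest library, divided by the range of the group, was 0.844, above Dixon's 95% critical value for 4 samples. The 31 tested genes were checked in this group and 1 was picked out, and chance alone picks out about 1 in 20 groups. That library is also the one of its group in batch b2. The part of batch in this value was not tested.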

How the results depend on the processing

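ECI1 kept its direction and its call in the hotspot comparison on P72 under all 22 alternatives run, with the smallest size without a batch term (-0.61, adjusted p = 0.00542). The number of the 31 genes called there was 7, and became 4 with the GC correction and 2 within b2 alone. It was 1 to 8 with 1 library left out, with 1 without R273H P72 replicate 1 (ECI1) and 4 without R175H P72 replicate 2. Without a batch term it was 5, of which only ECI1 was shared with the 7. Of all genes, 14.7% were called on P72 without a batch term and 13.4% with the GC correction. For R72 on R175H the 1 call became 4 without a filter on low counts (ACADS, ACSL4, ECI1 and ETFB), beside 2.23% of all genes. The count was 3 with the filter at 10 CPM (beside 2.56%) and 2 with DESeq2 (beside 2.04%). It became 0 without a batch term, with the GC correction and within b2 alone, and 0 to 2 with 1 library left out. For the difference of the R72 effects the count of 0 became 1 (ECI1) without a filter and with DESeq2, and 0 to 1 with 1 library left out. In R72 on R273H and in the hotspots on R72 it was 0 in every alternative run, and leaving out the R273H R72 library left neither to test. With the replicate number as a block, the counts became 3 on P72 (ACSL3, ACSL4 and ECI1) and 0 for R72 on R175H. They were likewise 3 and 0 with block and GC correction together. Of all genes, 10.9% were called on P72 with the block and 9.2% with both, and 0.496% and 0.239% for R72 on R175H. Libraries of the same number correlated at r = -0.253 to 0.146 in their deviations from the group means, at 0.124 to 0.146 for number 4. Number 3 could not be checked, since one of its libraries is alone in its group. Not every library correlated best with its own number. Batch was not taken out of these deviations. The r of -0.253 was between a b1 and a b2 library, and the highest of any pair, 0.313, between b2 libraries of different numbers. The check therefore cannot decide on pairing by number, which was not taken as given. No gene called in a genotype comparison changed the sign of its log2 fold change there in any alternative run. The other genes were not checked for a change of sign. Over all genes, the 185 calls for R72 on R175H became 564 without a filter, 333 with DESeq2, 81 with the block, 58 with the GC correction, 39 with both and 6 without a batch term. They became 24 without R175H R72 replicate 2, 52 without R175H P72 replicate 2 and 108 without R273H P72 replicate 3. The 2376 on P72 became 1502 with both and 866 within b2, 1214 without R175H R72 replicate 1 and 1253 without R273H P72 replicate 1. For R72 on R273H, 0 became 137 without a filter and 112 with DESeq2, and for the difference 5 became 196 and 138, with 0 to 48 when 1 library was left out. The 7 between the hotspots on R72 became 16 and 14. The cause of these shifts was not tested. Depth limits CPT1C and ACSL5, and the single R273H R72 library limits both comparisons that use it.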
